A study of Zea mays with 6 samples.

Results

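RNA from the stem and the leaf of well-watered maize (Zea mays) was compared gene by gene. The plants were seedlings of the hybrid variety ZD619, labelled wild type and at the 2 to 3 leaf stage, and the stem and leaf libraries both came from the well-watered treatment. These are 2 of the 6 libraries of a study that sequenced leaf, stem and root under well-watered and drought conditions, with 1 library per organ and treatment. Each library was made from pooled plants, so nothing measures the difference between plants, and no difference below has a replicate check or a test. The study's own account places the drought in older seedlings than the labelled stage, so the age at sampling is not certain. The well-watered root library and the drought stem and leaf libraries were used only to set the values of the compared pair beside other organs and a second pair.

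In maize, a C4 grass, the leaf blade fixes carbon first in mesophyll cells and passes it as C4 acids to bundle sheath cells, where Rubisco fixes it again. Light-harvesting proteins bind the chlorophyll that feeds the photosystems. In a seedling the true stem is short and lies within rolled leaf sheaths, and its growth depends on wall loosening, cellulose and lignin deposition, and water and sugar transport. The labels do not say which parts were gathered as stem.

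Levels were deposited as FPKM, a unit that allows for the length of the transcript and the depth of the library. The summed FPKM of the 6 libraries lay between 544251 and 908668, and between 25140 and 26416 genes were above 1 FPKM in each. Read counts were not used here, so no sampling error is given for a level. Among the 22641 genes above 1 FPKM in both compared libraries the median was 9.14 FPKM in stem and 11.9 FPKM in leaf, and stem values were multiplied by 1.14 and leaf values by 0.877 to bring both to the same median. Without this scaling every log2 difference falls by about 0.38, less for low genes. A gene was compared if it reached 1 scaled FPKM in either library, which 28439 of 109715 identifiers did. The difference is the log2 of (stem + 1)/(leaf + 1) on scaled values, positive where stem was higher. It understates the change of low genes. FPKM values in the text are as deposited, and differences are after scaling.

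Most genes differed little. The median difference of all 28439 genes was 0.01, and 69.1% of them lay within 2-fold. At least 4-fold higher in stem were 1734 genes (6.10% of those compared), and at least 4-fold higher in leaf were 836 (2.94%). These shares over all genes are set beside the lists below. Genes with a high mean level passed the limit more often. Among the 1103 genes with a mean of at least 100 scaled FPKM, 10.2% were past it in stem and 6.35% in leaf, against 5.66% and 2.81% of the 16155 genes below 10. Of the stem-high genes 357 were listed at 0 in leaf, and of the leaf-high genes 209 were listed at 0 in stem. The reference gives a gene name to 2009 of the compared genes, 148 of them stem-high and 41 leaf-high. The name-based lists draw only on these 2009, which are their closer background. In bulk tissue, fewer cells of a type and less RNA per cell cannot be told apart.

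**Figure D1:**
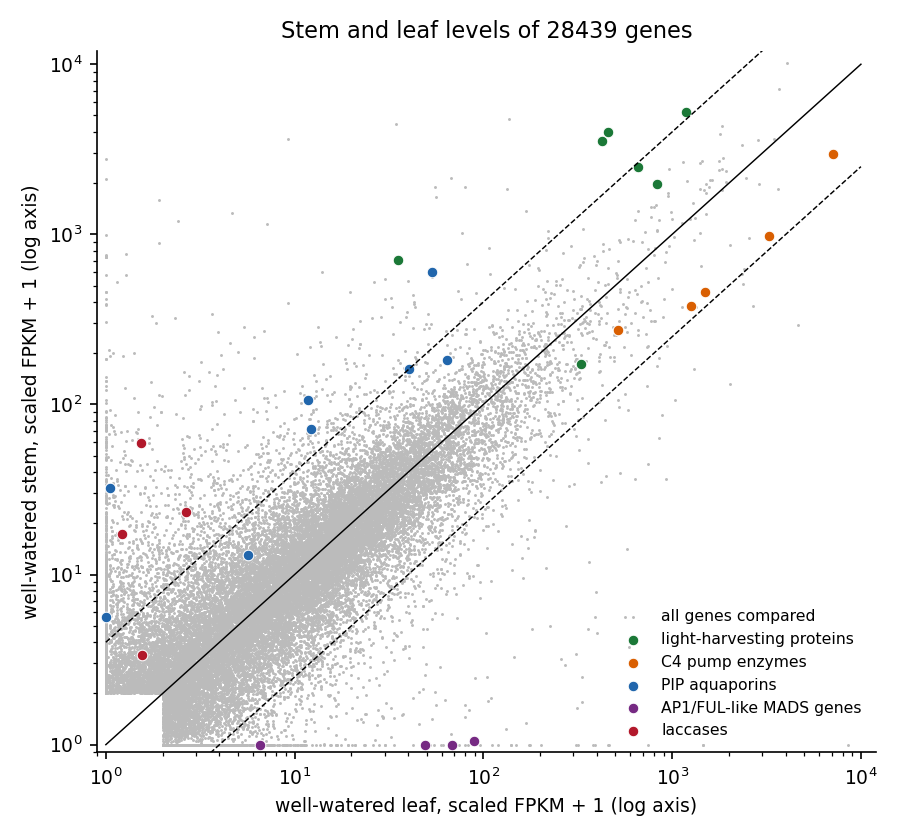
Scaled FPKM + 1 in the well-watered leaf (x axis, log) and stem (y axis, log) for the 28439 genes compared, 1 library each; the solid line marks equality and the dashed lines 4-fold differences. Light-harvesting genes, PIP aquaporins and laccases lie mostly above the upper dashed line or near it. The genes marked as C4 pump enzymes lie below equality, and the 4 AP1/FUL-like MADS genes lie on or next to the leaf axis.

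Class I KNOX transcripts were at or near 0 in the stem library. Class I KNOX genes are homeobox genes expressed in meristems and unexpanded stem, and kn1, lg3 and knox3 were listed at 0 FPKM in the library labelled stem. There lg4 was at 0.0368 and knox8 at 0.388 FPKM, and 6 class I genes summed to 0.425 FPKM in stem, 0 in leaf and 32.0 in root, where lg3 reached 19.4 FPKM. Since kn1 was listed at 0 in every library, and knox3 was above 0 only in well-watered root (0.127 FPKM), their 0 in stem is not informative. It cannot tell absence from a gene not detected in these data. The class II genes knox6 and knox7 were at 23.9 and 11.4 FPKM in stem and at 37.4 and 20.2 FPKM in leaf. The library is therefore called stem by its label. None of the 7 compared genes of the root list, named for iron acquisition and root hair or crown root growth, was past 4-fold in either direction. Not all of them marked root here, since ysl12 was at 25.9 FPKM in stem and 1.96 in root. Cell division genes showed no difference of that size. Of 9 compared histone genes and 21 cell cycle genes none was past 4-fold, with medians of -0.05 and 0.16.

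Light-harvesting transcripts were higher in stem than in leaf. The 7 light-harvesting genes summed to 15934 FPKM in stem, 4459 in leaf and 8.70 in root, so both shoot organs were far above root. At least 4-fold higher in stem were 4 of the 7 and none in leaf, and their median difference was 2.16 against 0.01 over all genes. Cab-m7, a chlorophyll a/b binding protein gene, was at 4613 FPKM in stem and 1343 in leaf, a difference of 2.16. The gene cab-m9 stood at 3517 FPKM in stem and 523 in leaf (3.13), and cab-m1 at 3107 and 486 FPKM (3.05). The widest gap was in cab48, with 619 FPKM in stem and 38.9 in leaf (4.33). Only lhcb4 of the 7 was lower in stem, at 150 FPKM against 373 in leaf (-0.93). The cab genes form a multigene family with similar copies, and how reads were divided among them is not given in the sources used here. The other 9 genes of the photosystem list, for photosystem subunits and electron carriers, had a median of 0.84 and 1 gene past 4-fold. That gene was fnr1, a ferredoxin-NADP reductase, at 27.4 FPKM in stem, 7.37 in leaf and 30.8 in root. In the drought pair the 7 light-harvesting genes summed to 15533 FPKM in stem and 1247 in leaf, and the median difference of the same genes was 5.65.

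A group of 5 genes picked by name for the C4 pump went the other way. It held the enzyme genes pep1, pdk1, ME1 and mdh6, and pdrp1, a regulator of the pdk1 enzyme. All 5 were lower in stem, with a median of -1.69, although none passed 4-fold. PEP carboxylase (pep1), which makes the first C4 acid, was at 851 FPKM in stem and 3735 in leaf (-1.75). Pyruvate orthophosphate dikinase (pdk1), which regenerates its substrate, was at 2604 and 8124 FPKM (-1.26). NADP-malic enzyme (ME1) and NADP-malate dehydrogenase (mdh6) stood at 403 and 330 FPKM in stem and at 1699 and 1439 in leaf. In root all 5 were below 13 FPKM. Rubisco did not follow them. One small subunit gene (rbcS, GRMZM2G098520) was at 2301 FPKM in stem and 1608 in leaf (0.90), and the other (GRMZM2G113033) at 1885 and 2797 FPKM (-0.19). Rubisco activase (rca1) was at 770 FPKM in stem and 488 in leaf (1.04). The single member past 4-fold in stem was PPCK2, a kinase that phosphorylates PEP carboxylase, at 151 FPKM in stem, 14.9 in leaf and 97.6 in root (3.62), and the single member past it in leaf was PPDK2, a second dikinase, at 5.90 FPKM in stem and 80.5 in leaf (-3.21). The drought pair kept PPDK2 at -3.53 but put PPCK2 at 0.21 and pep1 at 1.37. Over all 19 compared C4 and Rubisco genes the median was 0.24, and -0.12 without scaling.

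**Figure D2:**
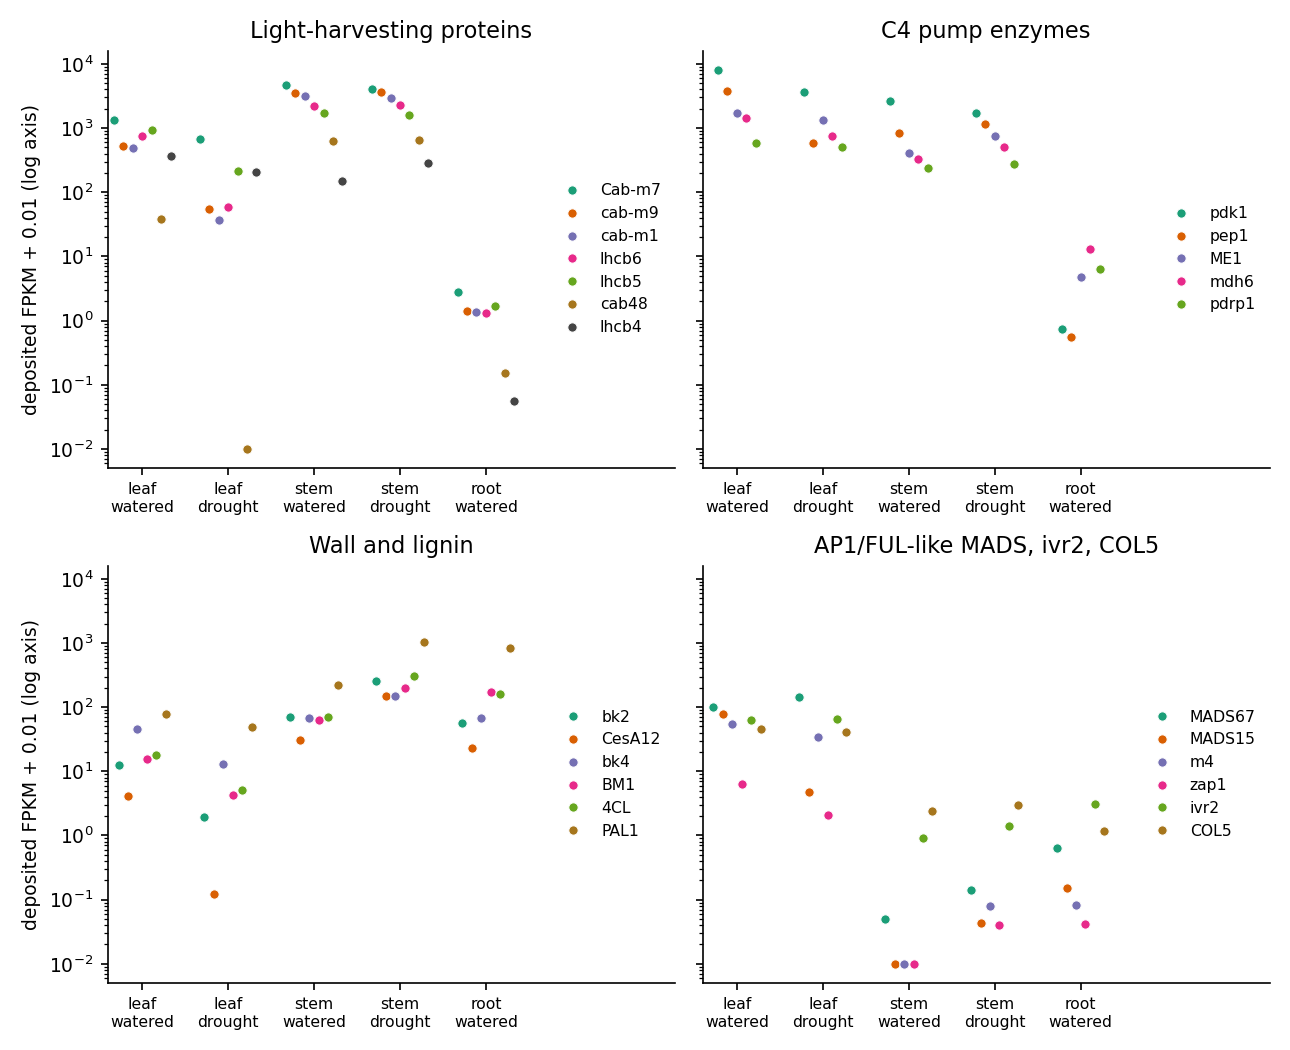
Deposited FPKM + 0.01 (log axis) of named genes in the leaf, stem and root libraries, 1 point per gene and library, in 4 panels. Light-harvesting genes other than lhcb4 are higher in stem than in leaf, and genes of the C4 pump panel are highest in well-watered leaf. Wall and lignin genes are higher in stem than in leaf, but among the well-watered libraries BM1, 4CL and PAL1 are highest in root. The 4 MADS genes, ivr2 and COL5 are above 2 FPKM in both leaf libraries. Points at 0.01 are listed at or near 0.

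Genes of the secondary wall were higher in stem. Of 4 compared genes of secondary-wall cellulose 2 were past 4-fold in stem and none in leaf, with a median of 2.25 that fell to 1.99 without scaling. CesA12, a cellulose synthase subunit, was at 31.1 FPKM in stem, 4.11 in leaf and 23.2 in root (2.99). The COBRA-like gene bk2, whose mutants have brittle stalks, was at 70.7 FPKM in stem, 12.6 in leaf and 56.2 in root (2.76). None of 6 primary-wall cellulose synthases was past 4-fold. Their differences ran from cesa5 at 13.1 FPKM in stem and 29.96 in leaf (-0.77) to cesa8 at 9.17 and 3.50 FPKM (1.49), with the most abundant, cesa7, at 72.8 and 74.1 FPKM (0.35). For CesA12 and bk2 the root level was nearer to stem than to leaf.

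Lignin genes had 5 of 13 compared members past 4-fold in stem and 1 in leaf, with a median of 1.75. Among all genes 6.10% and 2.94% were past it. Laccases, which oxidise monolignols in the wall, had the largest differences of the list. Laccase-13 (GRMZM2G132169) was at 51.3 FPKM in stem, 0.601 in leaf and 8.70 in root (5.29), and 3 of the 4 compared laccase genes passed 4-fold. Of the 4, GRMZM2G132169, GRMZM2G336337 and GRMZM2G305526 were below 1 scaled FPKM in leaf. They were compared only through stem, so their direction was set by the filter. Among the synthesis enzymes 4CL, a coumarate-CoA ligase, was at 71.3 FPKM in stem, 18.0 in leaf and 159 in root (2.29). BM1, the cinnamyl alcohol dehydrogenase of the first brown midrib mutant, was at 63.4 FPKM in stem, 15.5 in leaf and 171 in root (2.33). PAL1, which starts the pathway, stayed inside the limit at 222 FPKM in stem, 76.9 in leaf and 848 in root (1.90). The 9 lignin genes other than laccases summed to 534 FPKM in stem, 247 in leaf and 1584 in root, so root was highest. Against this direction cad1, another gene named as a cinnamyl alcohol dehydrogenase, was at 4.42 FPKM in stem and 30.2 in leaf (-2.19), and it held that side in the drought pair (-2.01).

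Expansins, which loosen walls in growing cells, were low in leaf. All 8 compared expansin genes were higher in stem, 4 of them past 4-fold (6.10% of all genes were), with a median of 2.04. Of these, expA3, expa2, expB2, EXPA5, expB4 and expa1 were below 1 scaled FPKM in leaf. They were compared only through stem, so their direction was set by the filter. The 16 expansin genes of the list, compared or not, summed to 142 FPKM in stem, 6.97 in leaf and 14.1 in root. The gene expa1 was at 77.9 FPKM in stem, 1.09 in leaf and 1.93 in root (5.52). A beta-expansin, expB6, was at 35.1, 1.31 and 1.76 FPKM in the same order (4.25), so these transcripts were mostly found in the stem library. Another beta-expansin, expB4, was at 9.55 FPKM in stem and listed at 0 in leaf. Alpha-tubulin tua4, a microtubule subunit, was at 364 FPKM in stem and 86.0 in leaf (2.45), the only one of 9 compared tubulins past 4-fold. Their median was 1.18.

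The wax list differed by a few large members. Of 11 compared wax and cuticle genes 4 were past 4-fold in stem and none in leaf, but the median was 0.32 and about 0 without scaling. The shares past 4-fold over all genes were 6.10% and 2.94%. The lipid transfer protein genes plt2 and plt1 were at 1887 and 1628 FPKM in stem and at 75.5 and 152 in leaf (5.001 and 3.79), and both were below 1 FPKM in root. The glossy1 gene gl1, needed for seedling leaf wax, was at 95.3 FPKM in stem and 6.67 in leaf (4.001). CER1, named for alkane synthesis, was at 27.5 and 65.6 FPKM (-0.85). All 10 compared anthocyanin genes were higher in stem, with a median of 1.76, 7 past 2-fold and 2 past 4-fold. Among all genes 50.5% were higher in stem. BZ1, r1, whp1 and f3h were below 1 scaled FPKM in leaf, so they were compared only through stem. Both genes past 4-fold, f3h and whp1, are among these. Flavanone 3-hydroxylase (f3h) was at 14.6 FPKM in stem, 0.172 in leaf and 0.683 in root (3.94), and the chalcone synthase gene whp1 at 9.63, 0.527 and 0 FPKM (3.04). The second chalcone synthase gene, c2, was at 39.4 FPKM in stem and 34.4 in leaf (0.56), then at 571 and 3.24 FPKM in the drought pair.

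Aquaporins, the membrane channels for water and small solutes, had 10 of 23 compared members past 4-fold in stem and 1 in leaf. Over all genes these shares were 6.10% and 2.94%. Of the plasma membrane PIP genes all 8 were higher in stem, 6 of them past 4-fold, with a median of 2.53. Among them pip2c and pip2d were below 1 scaled FPKM in leaf and were compared only through stem. PIP1-1 was at 525 FPKM in stem, 59.7 in leaf and 577 in root (3.49). The gene pip2d was at 27.2 FPKM in stem, 0.0608 in leaf and 292 in root (4.93). The 9 PIP genes summed to 1019 FPKM in stem, 207 in leaf and 2187 in root, so leaf was the lowest of the 3 organs. NIP genes, some of which carry silicon, were higher in stem in 5 of 5, with nip2b at 173 and 10.7 FPKM (4.26). Vacuolar TIP genes were split, with a median of -0.26 over 7. Of these tip4a was past 4-fold in leaf at 62.2 FPKM in stem and 342 in leaf (-2.06). PIP genes are near-identical in part, so the division of reads among them is uncertain.

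Sugar metabolism was divided between the organs. Of 24 compared sucrose and starch genes 3 were past 4-fold in stem and 3 in leaf, and the median was -0.42. The shares over all genes were 6.10% and 2.94%. Higher in leaf were ivr2, a vacuolar invertase, at 0.912 FPKM in stem, 61.9 in leaf and 3.06 in root (-4.76), the sucrose phosphate synthase gene SPS at 35.1 and 226 FPKM (-2.28), and the starch phosphorylase gene pho1 at 13.1 and 99.2 FPKM (-2.47). The sucrose transporter sut1, which loads phloem, was at 157 FPKM in stem and 466 in leaf (-1.19). The cell wall invertase incw1 was at 11.5 and 24.7 FPKM (-0.68). Of the 24 genes 9 were higher in stem. Sucrose synthase ss2 was at 245 FPKM in stem, 47.0 in leaf and 260 in root (2.73), the fructokinase frk2 at 132 and 38.2 FPKM (2.13), and the granule-bound starch synthase GBSSIIa at 61.6 and 9.35 FPKM (2.95). In the nitrogen list of 13, cytosolic glutamine synthetase GLN6 was at 13.6 FPKM in stem, 210 in leaf and 7.69 in root (-3.48), while of the 2 identifiers named gln1, plastid glutamine synthetase, GRMZM2G098290 was at 313 and 153 FPKM (1.40) and GRMZM5G885867 at 2.93 and 5.66 FPKM (-0.46). The asparagine synthetase asn2, at 3.77 and 0.325 FPKM (2.05), was the member past 4-fold in stem.

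Defence genes had 7 of 19 compared members past 4-fold in stem and none in leaf, with a median of 1.12. Among all genes the shares were 6.10% and 2.94%. The wound-induced proteinase inhibitor wip1 was at 52.8 FPKM in stem, 0.313 in leaf and 51.5 in root (5.59). Benzoxazinoids are the defence compounds of young grasses, and bx1, which makes their first intermediate, indole, was at 104 FPKM in stem and 13.7 in leaf (3.21). The P450 genes that follow were bx2 at 93.1 and 21.0 FPKM (2.46) and BX3 at 341 and 47.9 FPKM (3.18). The later BX5 was at 204 and 109 FPKM (1.28). The 7 compared bx genes had a median of 1.28. In the drought pair bx1 was at 10.4 FPKM in stem and 16.5 in leaf (-0.26), while bx2 and BX3 stayed on the stem side (1.52 and 1.89). MPI, another proteinase inhibitor, was at 49.2 FPKM in stem and 246 in leaf (-1.92). Lipoxygenases, which begin oxylipin synthesis, were divided. The gene lox1 was at 828 FPKM in stem and 248 in leaf (2.11), and lox10 at 1618 and 4160 FPKM (-0.98). Allene oxide cyclase aoc1, a step towards jasmonate, was at 23.7 FPKM in stem and 5.08 in leaf (2.36).

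The gibberellin list lay to the stem side. All 4 compared gibberellin genes were higher in stem, with a median of 1.498, against 50.5% of all genes. The gene an1, for the enzyme that begins gibberellin synthesis, was at 34.98 FPKM in stem, 7.55 in leaf and 31.9 in root (2.42). The dwarf gene d3, a later enzyme, was at 7.09 and 2.09 FPKM (1.68), and the DELLA repressor D8 at 22.2 and 10.9 FPKM (1.32). Of 34 compared auxin genes 2 were past 4-fold in stem and none in leaf, no more often than all genes (6.10% and 2.94%). AUX35 was at 19.3 FPKM in stem and 1.63 in leaf (3.24). Of 14 compared genes grouped by name as Aux/IAA, repressors of the auxin response, 13 were higher in stem, against 50.5% of all genes. Some were higher by little, as AUX10 (0.05), AUX17 (0.12) and AUX27 (0.13). IAA12 and aux2 were below 1 scaled FPKM in leaf and were compared only through stem. Among those 13, aux2 (2.93) is also named saur3, a name of another gene family, so the group is not Aux/IAA alone. Of the 6 compared cytokinin oxidases, which break the hormone down, 3 were past 4-fold in stem, against 6.10% of all genes. These 3 were below 1 scaled FPKM in leaf and were compared only through stem, so their direction was set by the filter. CKX10 was at 12.5 FPKM in stem and 0.643 in leaf (3.29), and CKX6 at 8.23 and 0.645 FPKM (2.73). CKX12 was at 6.94 FPKM in stem and listed at 0 in leaf. By contrast cko2 was at 4.36 FPKM in stem and 21.3 in leaf (-1.72).

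**Figure D3:**
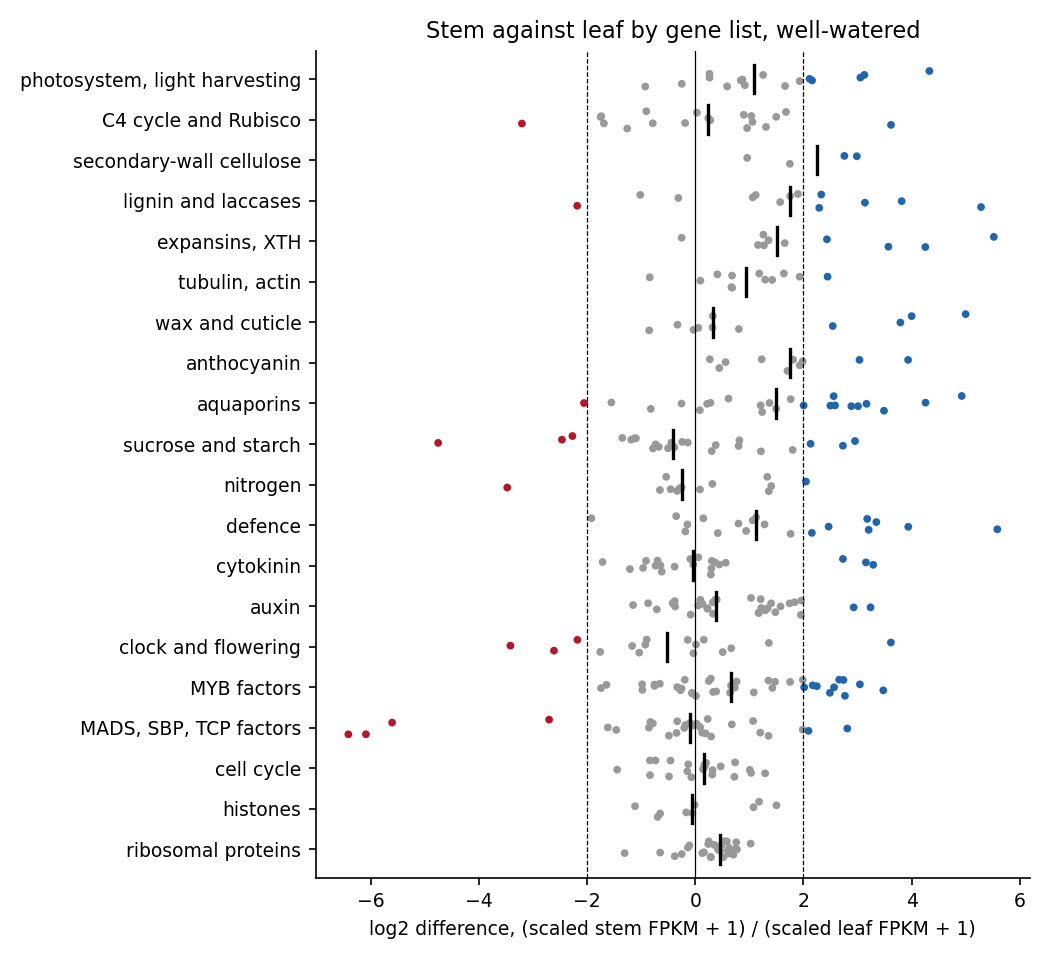
Log2 difference of stem over leaf for each compared member of 20 gene lists, well-watered, 1 library each; points are genes, black bars are list medians, dashed lines mark 4-fold, and blue and red points lie past it in stem and leaf. Aquaporins, lignin, defence and MYB lists have most of their marked points on the stem side, and the MADS, SBP and TCP list holds the 3 lowest points.

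The named genes with the largest differences to the leaf side were MADS box factors of the APETALA1/FRUITFULL group, which act in the shift to flowering. MADS67 was at 101 FPKM in leaf, 0.0400 in stem and 0.636 in root (-6.42). MADS15 was at 76.9 FPKM in leaf, m4 at 54.6 and zap1 at 6.31, and all 3 were listed at 0 in stem and below 0.2 FPKM in root. The order of stem and leaf was the same in the drought pair, where MADS67 was at 145 FPKM in leaf and 0.130 in stem and m4 at 34.8 and 0.0688 FPKM. MADS15 was then at 4.71 FPKM in leaf. Of 16 compared clock and flowering genes 3 were past 4-fold in leaf and 1 in stem, against 2.94% and 6.10% of all genes. The CONSTANS-like gene COL5 was at 2.44 FPKM in stem and 45.1 in leaf (-3.42). ZCN8, the maize florigen gene, was at 0.363 FPKM in stem and 6.19 in leaf (-2.18), and the related ZCN7 at 0.778 and 12.1 FPKM (-2.62). In drought both were below 0.7 FPKM in leaf and stem. ZCN26, of the same family, was on the stem side at 25.3 and 1.63 FPKM (3.62).

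Of 24 compared genes that pattern the leaf 18 were higher in stem, with a median of 0.58. Past 4-fold were 1 in stem and 2 in leaf. Among all genes 50.5% were higher in stem, and 6.10% and 2.94% were past 4-fold in stem and leaf. The gene rs2, a MYB factor that keeps KNOX genes off in leaf primordia, was at 21.0 FPKM in stem, 1.90 in leaf and 0.444 in root (3.23). The gene lbl1, needed for trans-acting small RNAs and leaf flattening, was at 3.75 FPKM in stem and 28.9 in leaf (-2.32). GRF2, a growth-regulating factor gene, was at 3.23 and 21.7 FPKM (-2.10).

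More transcription factor genes were past the limit in stem than in leaf, as was true of all genes compared. Over the 222 compared genes of 9 factor lists 23 were past 4-fold in stem and 5 in leaf, 10.4% and 2.25%. Over all genes the shares were 6.10% and 2.94%. Among the 2009 compared genes with a gene name, the closer background, 148 were past it in stem and 41 in leaf. Whether the factor lists differ from that background was not tested. MYB genes gave 10 of the 23, with 38 compared and none past the limit in leaf. Myb56 was at 15.1 FPKM in stem, 0.728 in leaf and 6.98 in root (3.48), and MYB167 at 8.34 and 0.312 FPKM (3.04). MYB63 was at 5.09 FPKM in stem and listed at 0 in leaf. Of the homeobox list HB34 was at 179 FPKM in stem, 4.55 in leaf and 33.7 in root (5.36). Ethylene response factors gave 5 in stem, led by EREB171 at 27.5 and 0.705 FPKM (4.32), and 1 in leaf, EREB60 at 4.23 and 26.3 FPKM (-2.05). Among bHLH genes, 3 of 27 passed in stem, with bHLH145 at 9.88 and 0.131 FPKM (3.46). The SBP gene sbp3 was at 10.96 and 1.05 FPKM (2.81). None of the 30 bZIP, 17 WRKY or 13 NAC genes compared was past 4-fold.

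Beyond the lists, the largest named differences on the stem side included hsbp1 at 3894 FPKM in stem, 38.1 in leaf and 1639 in root (7.01). An O-methyltransferase gene, OMT8, was at 94.4 FPKM in stem, 0.469 in leaf and 0.0328 in root (6.27). The genes cyp12 and TPS20-Del, the second named for a terpene synthase, were at 111 and 30.9 FPKM in stem and listed at 0 in leaf. In the same group msh1 was at 46.1 FPKM in stem, 0.284 in leaf and 0 in root (5.42), and LOL3 at 130, 3.28 and 520 FPKM (5.27). OMT8 and msh1 were thus near 0 outside the stem, whereas hsbp1 and LOL3 were high in root as well. On the leaf side kin1 was at 2309 FPKM in leaf, 114 in stem and 0.195 in root (-3.95). The potassium transporter gene HAK16b was at 11.6 FPKM in leaf and 0.0462 in stem (-3.41), and In2-2, known as induced by herbicide safeners, at 21.7 and 1.0004 FPKM (-3.22).

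The 5 largest differences of all in each direction were in identifiers without a gene name, and 9 of these 10 were listed at 0 in the lower library. GRMZM2G511229 was at 9747 FPKM in leaf and at 0 in the other 5 libraries. GRMZM2G589517 and GRMZM2G575110 were at 1848 and 868 FPKM in stem and at 0 elsewhere, and GRMZM2G516119 at 528 FPKM in leaf alone. AC208028.3_FG001 and GRMZM2G508373 held the same value in leaf, 1669 FPKM, and both were at 0 in stem. The first of these was above 0 in other libraries too, with the organs in the opposite order in drought, and GRMZM2G508373 was at 3269 FPKM in drought leaf and 0 in drought stem. The 4 identifiers above 0 in a single library have no second library behind them. Across all genes past 4-fold, 53 on the stem side and 36 on the leaf side were above 0 in 1 of the 6 libraries only, and 28 and 23 shared their exact FPKM with another gene. Of the 10, GRMZM2G700208 and GRMZM2G331518 were high in the drought stem too, with 1386 and 659 FPKM in stem, 1.05 and 0 in leaf, and 1979 and 939 in drought stem. GRMZM2G502474 was at 847 FPKM in leaf and 847 in drought leaf, and at 0 in both stem libraries.

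The drought stem and leaf libraries give a second pair of the same organs under another treatment, not a replicate. Scaled the same way, it had 2050 genes past 4-fold in stem (7.12% of 28792) and 1109 in leaf (3.85%). Of the 1734 stem-high genes of the well-watered pair 835 were past 4-fold in drought, 48.2% of the first list and 40.7% of the second, and 1408 (81.2%) had the same sign. Of the 836 leaf-high genes 286 were past it in drought, 34.2% of the first list and 25.8% of the second, and 671 (80.3%) had the same sign. Past 4-fold the other way were 37 and 22 genes. Drought and the organ's own level cannot be told apart in this second pair. Several lists lay further to the stem side there: the median of the same members went from 1.75 to 3.78 for lignin, from 2.25 to 5.28 for secondary-wall cellulose and from 0.93 to 1.90 for the cytoskeleton. Other medians shrank or changed sign: from 2.53 to 1.81 for PIP genes, from 2.89 to 0.43 for NIP genes, from 1.12 to 0.41 for defence and from -0.57 to 0.32 for the antioxidant list.

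**Figure D4:**
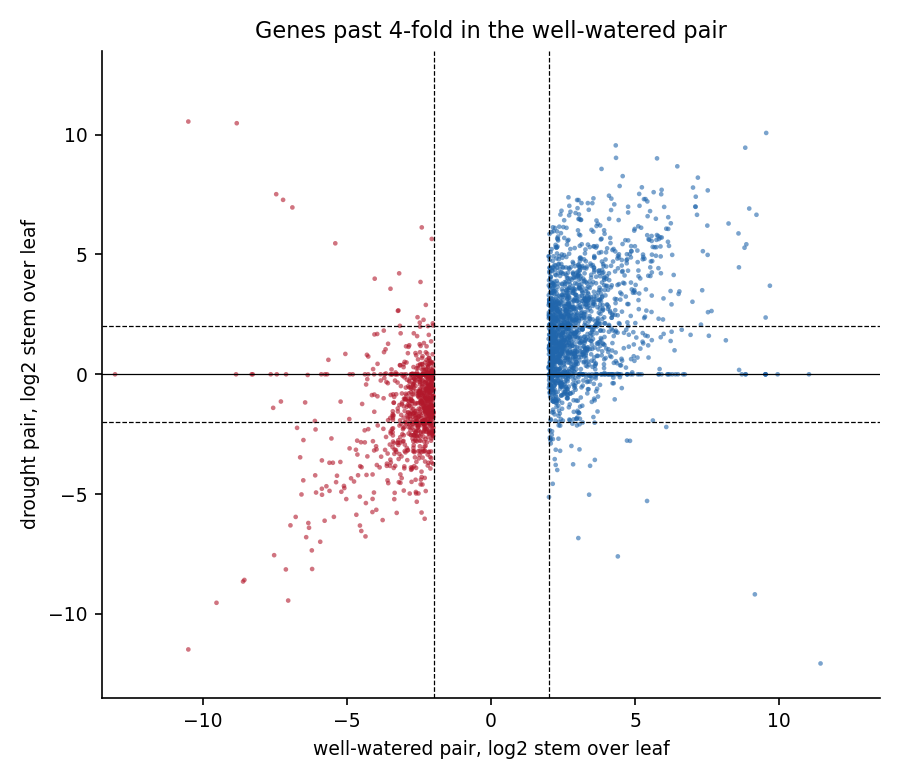
Log2 difference of stem over leaf in the drought pair (y axis) against the well-watered pair (x axis) for the 1734 stem-high (blue) and 836 leaf-high (red) genes; dashed lines mark 4-fold. Most points lie on the same side of 0 in both pairs, 81.2% of the blue and 80.3% of the red.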

How the data were processed

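The authors sequenced 6 libraries, from 3 organs of ZD619 plants in 2 treatments, on an Illumina HiSeq, and deposited FPKM values made with TopHat and Cufflinks (Cuffdiff) against the B73 genome; versions and genome release are not given in the sources used here. The 3 deposited tables, 1 per organ, list the same 109715 identifiers, each with FPKM in the well-watered and the drought library. They also hold the authors' log2 ratio of drought to control, which was not used. Tables may have been normalized separately, so levels across them were set after scaling to equal medians.

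Differences were computed with Python 3.11.15, numpy 2.4.6 and pandas 2.3.3, with a pseudocount of 1 FPKM, at least 1 scaled FPKM in either library and a limit of 4-fold. Scaling and calling were tested on simulated data. With 1 library per side no test was made. The study gives read totals per library, which were not used here, since no read counts per gene were. Gene names came from RefSeq names for assembly Zm-B73-REFERENCE-NAM-5.0: 18778 identifiers matched and 2599 have a gene name. No coordinates or sequences were used.

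The genes and the 39 name-based lists were chosen with earlier results of these data known. After values were seen, 99 entries whose names belong to other proteins were dropped and 19 added, on names alone. Genes named are, in each direction, the 5 largest differences of all and the 10 largest with a gene name, at 10 scaled FPKM or more in the higher library, and up to 4 members per list by largest, smallest and highest value, or past 4-fold for factor lists. Other members named were chosen after their values were seen. A list member is not reported here. Alternatives covered scaling, pseudocount, filter, fold limit and the drought pair.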

Additional observations from a re-analysis of the deposited data

Results flagged for a closer look

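Of the named genes and list members past 4-fold in the well-watered pair, those of the opposite sign in the drought pair are given here. With 1 library per organ and treatment the difference between the pairs was not tested. AC214039.3_FG005 was at 2441 FPKM in well-watered stem and listed at 0 in leaf, but at 0 in drought stem and 4903 FPKM in drought leaf. AC208028.3_FG001 did the reverse, with 1669 FPKM in well-watered leaf, 0 in stem, and 1306 FPKM in drought stem against 0 in leaf.

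The NIP aquaporin gene nip2b went from a stem over leaf difference of 4.26 to -0.37, as stem fell from 173 to 29.6 FPKM and leaf stood at 10.7 and then 50.5 FPKM. ZCN26 went from 3.62 to -0.10. The ethylene response factor gene EREB92 went from 3.36 to -0.62, with leaf at 2.11 and then 95.1 FPKM. HB128 went from 2.31 to -0.73 and GLK5 from 2.67 to -0.18. The benzoxazinoid gene bx1 went from 3.21 to -0.26, the chitinase gene GRMZM2G453805 from 2.16 to -0.081, MADS4 from 2.09 to -0.15 and MYB112 from 2.17 to -0.83. On the leaf side CPN60I (GRMZM2G458208), a mitochondrial chaperonin gene, went from -2.05 to 0.47, with stem at 6.94 and then 29.9 FPKM, and the florigen gene ZCN8 from -2.18 to 0.32.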

How the results depend on the processing

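The counts depended on the pseudocount, the fold limit and, on the leaf side, the scaling. Genes higher in stem numbered 1734 as reported, 3144 with a pseudocount of 0.1 FPKM, 652 with 5 FPKM, 4895 at a 2-fold limit, 716 at an 8-fold limit and 148 among genes named in the reference. Genes higher in leaf numbered 836 as reported, 1265 without scaling (with 1349 in stem), 2048, 1294 and 263 with pseudocounts of 0.1, 0.5 and 5 FPKM, 531 with a minimum of 10 FPKM in the higher of both libraries, 3889 at 2-fold, 239 at 8-fold and 41 among named genes. Upper quartile, equal-sum and trimmed-mean scaling gave 1602 to 1725 in stem and 842 to 957 in leaf. Filters chosen after seeing the data gave 1497 and 727 genes also above 1 FPKM in the drought library of the higher organ, and 1377 and 627 above 0 in both libraries. Of 1246 values for 178 named genes under settings other than the drought pair, 1171 kept their sign and side of the limit, 75 crossed the limit or, if inside it, 0, and no gene past the limit changed sign. For the 36 list medians 299 of 324 did so. In the drought pair 20 of the 36 list medians kept their sign and side of the limit, and 16 did not. Of the 178 named genes 94 kept both there, 71 crossed the limit or, if inside it, 0, and 13 changed sign from past the limit. In the drought pair the log2 differences of these genes that changed sign from past the limit were -12.07 for AC214039.3_FG005 and 10.55 for AC208028.3_FG001, which rest on the pseudocount since 1 library is at 0, -0.37 for nip2b, 0.47 for CPN60I, -0.10 for ZCN26, -0.62 for EREB92, -0.73 for HB128, -0.18 for GLK5, 0.32 for ZCN8, -0.26 for bx1, -0.081 for the chitinase gene GRMZM2G453805, -0.15 for MADS4 and -0.83 for MYB112. The cause was not tested.

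No paired analysis was possible because each group has 1 library. No library was left out, since each is the only one of its group. FPKM without read counts gives no counting error, so differences of genes near 1 FPKM are the least certain.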

Other observations

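Of 29 compared ribosomal protein genes 23 were higher in stem, with a median of 0.46 and none past 4-fold. In the antioxidant list of 36 compared, 4 were past 2-fold in stem and 13 in leaf, with a median of -0.57. Against this direction PER42, a peroxidase gene, was at 79.7 FPKM in stem and 6.94 in leaf (3.70). Glutathione transferases lay to the leaf side, with 8 of 24 higher in stem and a median of -0.79. GST26 was the member past 4-fold in stem, at 8.59 and 0.736 FPKM (2.71). Of 13 compared heat shock genes 3 were past 2-fold in stem and 4 in leaf, and hsp101 was past 4-fold in stem at 8.08 and 1.02 FPKM (2.43) and at 163 FPKM in root. The chaperonin gene CPN60I (GRMZM2G458208) was past it in leaf at 6.94 and 41.1 FPKM (-2.05). Abscisic acid genes had none of 14 past the limit, the nearest being the receptor gene PYL2 at 10.02 and 2.48 FPKM (1.97).

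The MAPKKK genes are the kinase family that the study was about. Of 68 identifiers on its list that the tables hold, 51 were compared, with a median of -0.08. Past 4-fold were 2 in stem (3.92%) and none in leaf, against 6.10% and 2.94% of all genes. With so few members these counts do not set the family apart from all genes. The highest was GRMZM2G474546 (2.27) and the lowest GRMZM2G088299 (-1.26). Summed over the 68, levels were 548 FPKM in stem and 688 in leaf.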
